A study of Rattus norvegicus with 3 samples.

Results

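Gene expression in the soleus of irradiated rats suspended by the tail (group TS) was compared with that of irradiated rats whose hind limbs stayed loaded (group Ct). The rats, from a strain labelled Brown, were 7 weeks old, and both groups received a total of 50 mSv over 2 weeks. Every group carried the irradiation, so its own effect was not measured; no unirradiated rats were analysed here. A denervated group (DN), irradiated in the same way, is given beside them only for its levels, because its difference from Ct rests on the same Ct array. RNA of 6 rats was pooled for each group and read on 1 array (Affymetrix Rat Gene 1.0 ST), and the series text speaks of 2 arrays where 3 were used here. With 1 pool a side there is no spread between animals and no test, so every value describes these pools and cannot be extended to other rats. A gene was taken from the brightest of its probe sets, among probe sets with exactly 1 gene symbol, and was compared when its mean over the 3 arrays reached the 30th percentile (5.72). This left 10154 of 14506 genes. The dimmest gene kept had a mean of 5.7208 and the brightest one dropped a mean of 5.7199. All levels are log2 RMA values, and each difference is TS minus Ct on that scale, so that 1 is a 2-fold difference.

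The soleus is a postural muscle of the hind limb, rich in slow fibres that burn fatty acids in mitochondria. Tail suspension lifts the hind limbs off the floor, and a soleus unloaded in this way is known to shrink and to take on features of fast muscle. Fibre type is read from the myosin heavy chains: Myh7 marks slow fibres, and Myh2, Myh1 and Myh4 mark fibres of increasing speed. The tissue label was checked on 12 genes of skeletal muscle, all of which were bright in each pool. Some of them, such as Ttn and Des, are not particular to slow fibres. Their median level was 13.39 in Ct, 12.85 in DN and 13.18 in TS. Myh7 itself read 13.62 in Ct, 13.06 in DN and 13.24 in TS, close to the upper end of the array's range in each.

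Over all genes compared, 139 were at least 2-fold higher in TS (1.37%) and 70 at least 2-fold lower (0.689%). At 1.5-fold, the limit used below for members of gene groups, 598 were higher (5.89%) and 272 lower (2.68%). The median difference was 0.02, and 95% of genes lay between -0.60 and 0.81. An exactly equal value on both arrays, which the summary of probes by median polish can return, was found for 2506 genes (24.7%). The balance of directions depended on the scaling. Between the 2 arrays the medians over these genes differed by 0.13, with TS the higher, and centring each array on its median takes this amount from every difference, which moves the median difference of all genes to -0.12. The share of the 2-fold genes that were higher was 66.5% as deposited, 42.9% after centring, 57.3% after a trend on expression was removed and 51.8% after quantile normalization. At 1.5-fold the share was 68.7%, 47.2%, 60.1% and 56.6% in the same order. After centring, 357 genes were 1.5-fold higher (3.52%) and 400 lower (3.94%). Centred counts are therefore given beside many of the gene groups below.

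**Figure D1:**
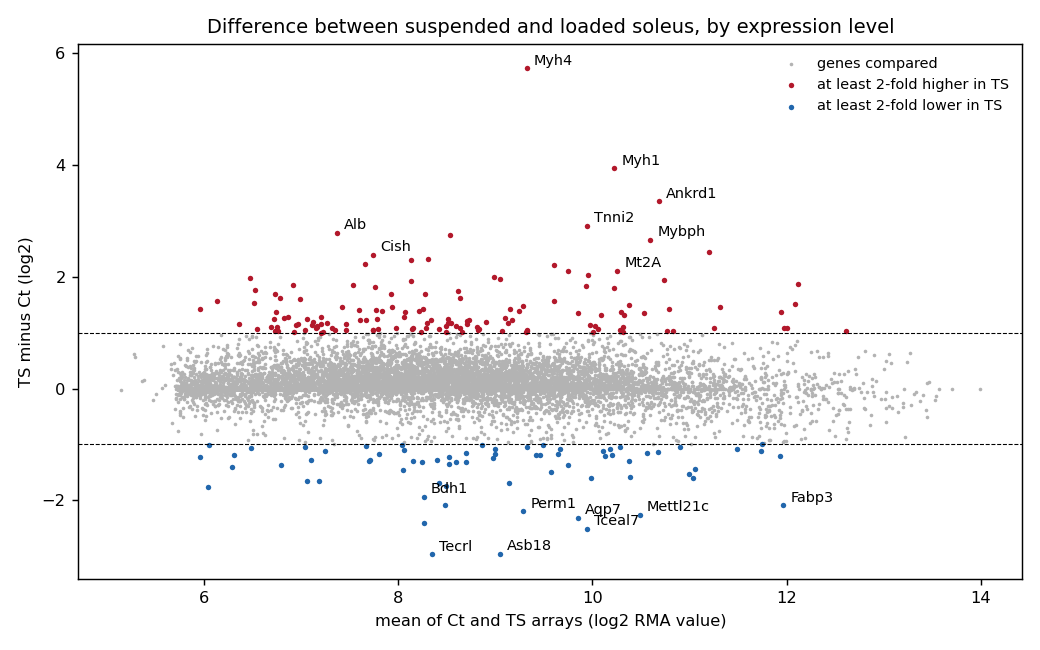
Each point is 1 of the 10154 genes compared, with the mean of the Ct and TS arrays on the horizontal axis and TS minus Ct on the vertical axis (both log2); dashed lines mark 2-fold. Myh4, at 5.72, stands apart from all other genes, and the 139 higher and 70 lower genes in colour are spread over the range of levels.

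The contractile apparatus held the largest differences. Myh4, the heavy chain of the fastest fibres, read 6.46 in Ct, 8.48 in DN and 12.19 in TS, a difference of 5.72 or 52.8-fold. Myh1 read 8.26, 11.99 and 12.19, which is 15.3-fold higher in TS than in Ct. Myh2, the heavy chain of fast oxidative fibres, differed by less, with 11.68 in Ct, 12.04 in DN and 12.52 in TS. Of these 3 fast heavy chains, Myh4 was thus the one in which the suspended pool lay far above the denervated one, while Myh1 read similarly in both. The probes of these heavy chains can share signal, because the genes are close copies.

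Fast partners of the myosins were higher as a group. The fast-fibre list had 13 of 16 members past 1.5-fold on the higher side, none on the lower side and a median difference of 1.41, and centring left these counts as they were. The fast inhibitory troponin Tnni2 read 8.49 in Ct and 11.40 in TS, and the calcium-binding troponin Tnnc2 11.18 and 13.04. Among proteins that bind the thick filament, Mybph (9.26 and 11.93) and the fast form Mybpc2 (5.49 and 7.46) were higher. The essential light chain Myl1, used by all fast fibres, was the one member below its Ct level, at -0.10.

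Slow-fibre genes stood slightly lower. The median of 16 was -0.29, with 3 at least 1.5-fold lower and 1 higher, and 13 below their Ct level. Myh7 differed by -0.38 and the slow troponin Tnni1 by -0.23. Larger differences were found for the ventricular and slow light chain Myl2 (12.44 in Ct, 11.31 in DN, 11.50 in TS), for Myoz2, a Z-disc partner of calcineurin (-0.85), and for Myh7b (-1.69), a further slow myosin gene. Csrp3, a Z-disc protein that takes part in sensing stretch, went the other way, from 12.95 to 13.59. Sln, an inhibitor of the calcium pump, read 12.13 in Ct and 12.71 in TS. In the suspended pool, fast-fibre messages above their Ct level thus stood beside slow-fibre messages that mostly lay within 1.5-fold of theirs.

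**Figure D2:**
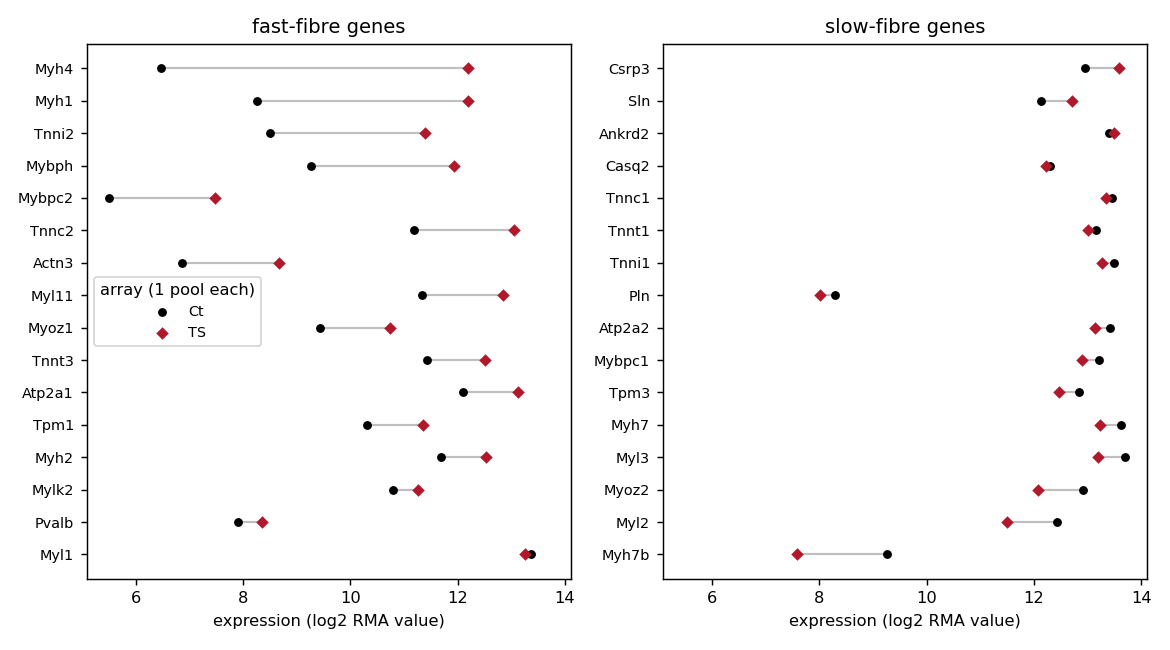
Levels (log2 RMA value, horizontal axis) of the 16 fast-fibre genes and the 16 slow-fibre genes in the Ct pool (black circles) and the TS pool (red diamonds), ordered by their difference. Fast-fibre genes reach up to 5.72 above Ct in TS, while 13 of the 16 slow-fibre genes lie to the left of Ct, by no more than 1.69.

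Genes of developing and regenerating muscle were higher as well, 7 of 15 at 1.5-fold, and none was lower. Their median was 0.56. Ankrd1, a stretch-responsive partner of titin, read 9.01 in Ct, 13.24 in DN and 12.36 in TS. The embryonic heavy chain Myh3 read 9.98, 12.23 and 12.41. The myogenic factors Myod1 (7.18, 10.62 and 9.09) and Myog (10.08, 11.95 and 11.50) had their highest level in DN, with TS between the other pools. Nes, an intermediate filament of immature fibres, was highest in TS (7.43, 7.88 and 9.12). Igf2 and Dlk1, both imprinted fetal genes, did not differ by more than 0.01. Among 14 satellite cell markers, which overlap with this group in Myf5 (0.82), 3 were 1.5-fold higher and 1 lower, with a median of 0.00. Chodl, found on a subset of satellite cells, was the lower one, at -0.90.

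Genes that link the sarcomere to the membrane and sense load split. Of 35 genes of the costamere and Z-disc, 7 were higher and 1 lower (3 and 2 after centring), with a median of 0.08 that turned to -0.05. Beside Ankrd1 and Csrp3 the higher ones were the actin-bound repeat protein Xirp2 (1.08), the muscle integrin Itga7 (0.81), Pdlim3 (0.70), Sync (0.66) and vinculin, Vcl (0.63). Pdlim3, Sync, Vcl and Csrp3 were past 1.5-fold as deposited and not after centring. The integrin-binding chaperone Itgb1bp2, also called melusin, was the lower one and read 10.17 in Ct, 6.88 in DN and 9.25 in TS. In the coupling of excitation to calcium release, 4 of 24 genes were higher, none was lower, and the median was 0.25. Ryr1, the calcium release channel, read 10.71 in Ct, 11.08 in DN and 11.79 in TS, and the store-operated channel Orai1 9.60, 9.49 and 10.40. The voltage sensor subunit Cacnb1 (0.69) and the junctional protein Asph (0.68) were also past 1.5-fold, but not after centring.

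At the neuromuscular junction the receptor and its organisers went different ways. Of 17 genes, 5 were higher and 2 lower, and after centring 2 and 2, so the group has no settled direction. The clustering kinase Musk read 7.22 in Ct, 9.79 in DN and 8.27 in TS. The neuregulin receptor Erbb3 (0.92) and acetylcholinesterase, Ache (0.70), were higher too. By contrast the receptor subunits Chrna1 (9.25, 12.84 and 7.94) and Chrnd (9.58, 11.10 and 8.42) had their lowest level in TS and their highest in DN. The adult subunit Chrne differed by -0.11. Of 9 regulators known from denervation, 4 were higher in TS and none lower, among them Runx1 (7.99, 11.66 and 9.98) and Gadd45a (9.86, 13.01 and 11.21), both with TS between Ct and DN.

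Genes of the respiratory chain and of fatty acid use were lower as groups. Mitochondria oxidise pyruvate and fatty acids to acetyl-CoA, and the electrons that this yields pass through complexes I to IV while ATP synthase uses the resulting gradient. Of 74 subunits of these 5 complexes, 25 were at least 1.5-fold lower in TS and none higher, and 68 lay below their Ct level. The complexes had similar medians, -0.43 for complex I (13 of 32 lower), -0.53 for complex II (1 of 4), -0.45 for complex III (2 of 8), -0.36 for complex IV (5 of 14) and -0.36 for ATP synthase (4 of 16). The call for complex II, that of Sdhb (-0.63), was lost after a trend was removed and after quantile normalization. Ndufb4 of complex I read 10.79 in Ct, 10.40 in DN and 9.60 in TS, and a further probe set of it differed by -1.65. Cox8b, the muscle form of a complex IV subunit, read 11.14, 9.66 and 9.99. The ring subunit of ATP synthase Atp5mc1 read 10.81, 9.28 and 9.76. Lower subunits were spread over all 5 complexes.

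Fatty acid and ketone use differed by more than the respiratory chain. Of 39 genes, 24 were lower and 3 higher, with a median of -0.71. The steps from uptake to oxidation each had members among the lower genes. Cd36, which takes fatty acids into the cell, read 12.29 in Ct, 11.70 in DN and 11.18 in TS, and a further probe set differed by -1.02. Fabp3, which carries them through the cytosol, read 13.01, 11.39 and 10.92. For entry into the mitochondrion, Cpt2 differed by -1.59 and the carnitine carrier Slc25a20 by -1.05. The oxidation enzyme Hadh differed by -1.21, and Bdh1, which oxidises the ketone body hydroxybutyrate, read 9.23, 6.92 and 7.30. The 3 higher members were Angptl4, an inhibitor of lipoprotein lipase (5.35, 7.64 and 6.92), the fatty acid transporter Slc27a4 (1.00) and the acyl-CoA synthetase Acsl6 (0.91). Angptl4 read below the filter limit (5.72) in Ct, so the size of its difference is less certain. Markers of adipocytes, another cell type that stores and releases fatty acids, were themselves higher in TS (described with the cell types), and their part in these values was not tested. In a pooled muscle sample, a change in the number of cells of a type and in the RNA of each cell cannot be told apart.

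Pyruvate handling went with the respiratory chain. Of 31 genes of the citric acid cycle and its pyruvate supply, 8 were lower and 1 higher, with a median of -0.37. The pyruvate carrier subunits Mpc1 (10.72 in Ct, 8.82 in DN, 9.64 in TS) and Mpc2 (-0.80) were lower, as was Idh2 (-0.78). The single higher member was Pdk4, the kinase that shuts pyruvate dehydrogenase, at 11.26, 10.92 and 12.62, with the suspended pool above both others. Enzymes that break down branched-chain amino acids had a median of -0.21 and none of 18 past 1.5-fold in either direction, although 2 were lower after centring. Not all mitochondrial genes took part. The 68 mitochondrial ribosomal proteins had a median of -0.02 with 1 lower, Mrpl40 (-0.91), and the 20 genes of protein import a median of 0.00 with none past 1.5-fold.

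Among regulators of the oxidative programme and of capillaries, 4 of 23 were lower and 1 higher. Perm1, a muscle regulator of mitochondrial genes, read 10.39 in Ct, 6.06 in DN and 8.19 in TS. Vegfa, the growth factor of capillaries, read 10.73, 9.76 and 9.53, and Vegfb 9.97, 8.99 and 9.09. Prkag3, an AMP kinase subunit typical of fast muscle, was the higher one, with 7.55, 9.99 and 8.96. Endothelial markers had a median of -0.03, with 1 of 17 lower, the VEGF receptor Kdr (-0.73), and none higher.

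Glycolysis and glycogen genes differed in both directions, 7 of 35 higher and 3 lower (6 and 5 after centring), with a median of 0.00. Higher were Pfkfb3, which makes an activator of glycolysis (6.90, 7.30 and 8.30), the muscle phosphorylase kinase subunit Phkg1 (1.05), hexokinase Hk2 (0.98) and both glycerol phosphate dehydrogenases, Gpd2 (0.87) and Gpd1 (0.78). Lower were the heart-type lactate dehydrogenase Ldhb (12.44, 10.94 and 11.49), Ugp2, which makes UDP-glucose for glycogen (-0.91), and the lactate transporter Slc16a1 (-0.70). The lower ones thus include the lactate dehydrogenase form and the lactate transporter typical of oxidative fibres.

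Genes for building ribosomes were higher, most of them by less than 1.5-fold. For ribosome assembly in the nucleolus, 51 of 57 genes lay above their Ct level, 10 of them by 1.5-fold or more, and none was lower by that much. Their median was 0.39, against 0.02 for all genes, and 6 were past 1.5-fold after centring. Polr1a, the largest subunit of the polymerase that makes ribosomal RNA, read 7.39 in Ct, 7.53 in DN and 8.32 in TS. The snoRNP protein Nhp2 read 9.70, 9.76 and 10.60, and Bop1, needed for the large subunit, 7.93, 8.24 and 8.72. For each of these the DN level lay closer to Ct than to TS.

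The products of that assembly, the cytosolic ribosomal proteins, were 12 of 69 higher and 1 lower, with a median of 0.26 (5 higher after centring). Rpsa read 11.70 in Ct, 12.02 in DN and 12.47 in TS. Rps27 was the exception at 6.57, 6.57 and 5.34, and since ribosomal proteins have many processed copies, its probes may read more than 1 locus. For translation itself, initiation factors and aminoacyl-tRNA synthetases had few members past the limit, against 5.89% of all genes. Elongation factors had 2 of 7 past 1.5-fold on the higher side, and 1 under each of the 3 other scalings. Their median was 0.31, or 0.17 after centring, with 4 above their Ct level and 2 below. Initiation factors had a median of 0.16, with Eif3b (0.72) and Eif5 (0.63) of 38 past 1.5-fold and neither after centring. Aminoacyl-tRNA synthetases had a median of 0.22, with 1 of 19, Wars1 (0.62), past the limit as deposited and none under the 3 other scalings. Transport through the nuclear pore had 9 of 46 higher and 1 lower, with a median of 0.20, and after centring 5 higher and 1 lower, with a median of 0.07. The import receptor Kpnb1 read 9.34, 9.57 and 10.19 and the pore protein Nup210 6.65, 6.91 and 7.47. The exportin Xpo4 was the lower one (11.02, 9.98 and 9.73).

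Protein folding and the supply of amino acids held further higher genes. All 8 subunits of the CCT chaperonin, which folds actin and tubulin, lay above their Ct level, by 0.08 to 0.95, with a median of 0.55. Of these 8, Tcp1 (0.95), Cct6a (0.92) and Cct7 (0.91) passed 1.5-fold. The other chaperones on the same list did not, and Hspa9 (-0.30) and Bag3 (-0.34) lay below Ct. Of 7 small heat shock genes, 2 were lower, Hspb6 (13.06, 11.59 and 12.16) and Hspb3 (10.52, 9.42 and 9.63). Among amino acid transporters, 7 of 19 were higher and 2 lower, the same counts as after centring, with a median of 0.32. Slc7a5, which takes up leucine, read 6.38 in Ct, 7.29 in DN and 7.51 in TS. The glutamine transporter Slc1a5 read 6.61, 7.37 and 7.73. Slc38a1 (-0.88) and Slc38a3 (-0.59), also glutamine transporters, were lower. Of the amino acid response and endoplasmic reticulum stress genes, Mthfd2 (0.99), Sdf2l1 (0.95) and Psat1 (0.90) of 24 were higher and Atf3 lower.

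**Figure D3:**
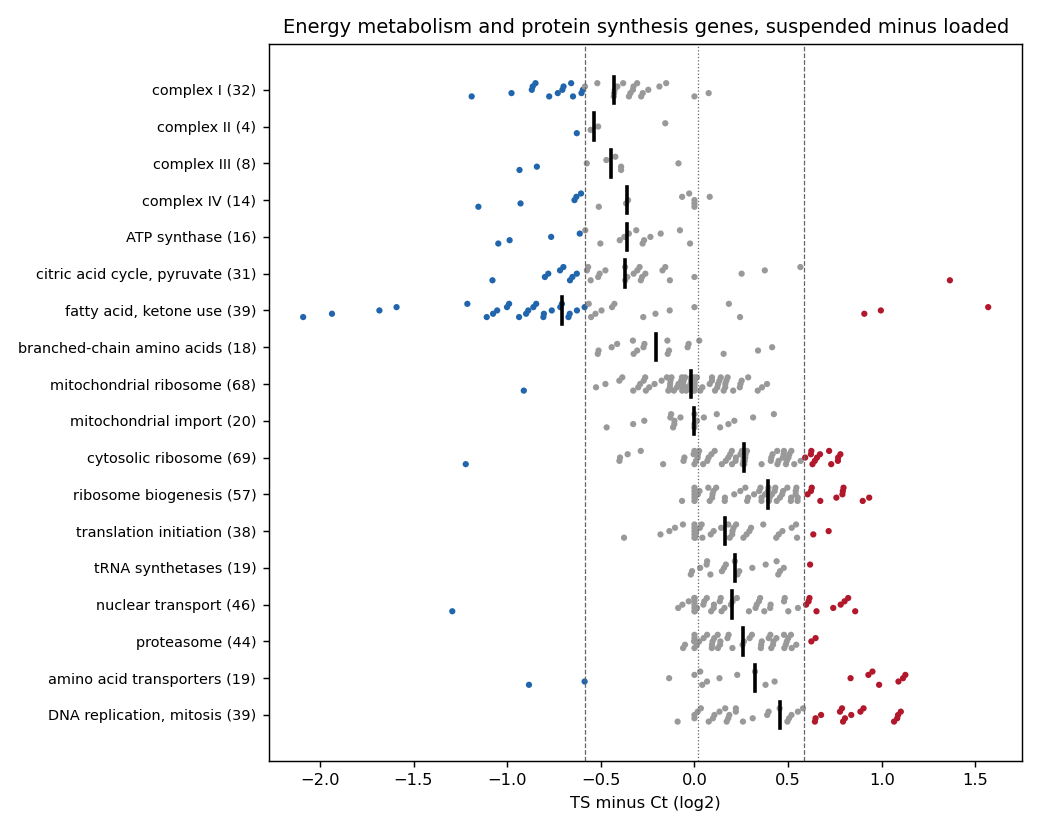
TS minus Ct (log2, horizontal axis) for every compared member of 18 gene groups, with the number of members in brackets; black bars are medians, dashed lines 1.5-fold, the dotted line the median of all genes (0.02), red and blue the members past 1.5-fold. The respiratory complexes and fatty acid genes lie to the left (medians -0.36 to -0.71), mitochondrial ribosome and import genes at about 0, and the groups from the cytosolic ribosome down to DNA replication to the right (0.16 to 0.46).

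Genes of DNA replication and mitosis formed the group with the highest median of these, 0.46, with 14 of 39 past 1.5-fold on the higher side (11 after centring) and none on the lower. A further 7 of its 46 genes on the array were below the filter, and without the filter the median was 0.38. The 4 measured subunits of the MCM helicase, which unwinds DNA for replication, were all higher: Mcm6 read 6.61 in Ct, 6.58 in DN and 7.69 in TS, and Mcm5, Mcm7 and Mcm2 differed by 1.07, 0.79 and 0.78. The ribonucleotide reductase subunit Rrm2 read 6.78, 6.27 and 7.87, with 1.05 on a further probe set. The mitotic cyclin Ccnb1 read 6.14, 5.49 and 7.24. In these 3 the denervated pool lay at or below Ct and the suspended pool above it. At the same time Cdkn1a, the gene of p21, a brake on the cell cycle, read 8.50, 12.45 and 10.71. All 3 GADD45 genes, which are induced by stress and damage, were higher by 1.23 to 1.35. They and Cdkn1a made up 4 of the 6 higher genes among 21 p53 targets, whose median of 0.08 was negative under the 3 other scalings. Macrophage markers were higher in TS as well (8 of 21), and the cell type that carries the replication genes was not tested.

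Most genes of protein breakdown stayed within 1.5-fold. Subunits of the proteasome stood at a median of 0.26, or 0.13 after centring, with 38 of 44 above their Ct level and 3 below. Past 1.5-fold were 2 of the 44, Psmd11 (0.65) and Psmd8 (0.62), but none after centring. A further, dimmer probe set of Psmd8 read 5.81 in both Ct and TS. The muscle ubiquitin ligases Fbxo32, or atrogin-1, and Trim63, or MuRF1, are the usual markers of atrophy. Fbxo32 read 10.77 in Ct, 10.90 in DN and 11.41 in TS, and Trim63 11.02, 11.33 and 11.57. Both were above their Ct level in TS, Fbxo32 past 1.5-fold as deposited but not after centring, and Trim63 within it. Among 33 ligases and ubiquitin genes, 3 were higher and 3 lower (1 and 3 after centring), and the extremes were members of 1 family, the ASB substrate receptors. Asb18 read 10.53, 6.93 and 7.57, Asb2 11.77, 9.59 and 10.34, and Asb10 differed by -1.03, while Asb11 read 9.48, 7.16 and 10.47. In Asb11 the suspended pool lay above Ct where the denervated pool lay below it. The median for autophagy and the lysosome was 0.01, negative under the 3 other scalings, with the protease Ctsl (0.66) alone of 33 past 1.5-fold as deposited and none after centring. Of 13 calpain, caspase and Bcl2 family genes only Capn6 (0.61) was, and not under the other scalings.

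Mt1, Mt2A and some of the genes known to respond to glucocorticoids were higher. Metallothioneins are small proteins that bind zinc and copper, and their genes are switched on by metals through the factor MTF-1 and also by glucocorticoids. Mt2A read 9.20 in Ct, 11.48 in DN and 11.31 in TS, and Mt1 read 9.02, 11.67 and 10.85. Both were thus higher in both treated pools. Further probe sets differed by 2.14 for Mt2A and 1.91 for Mt1, and since the genes are close copies their probes may share signal. Mt3, the form found in brain, differed by -0.45. The promoters of Mt1 and Mt2A (RefSeq, assembly GRCr8, minus strand, 250 bases before to 50 after the start) are shown because these neighbouring genes were both higher. Capitals mark the core of the metal response element bound by MTF-1, TGCACNC or TGCGCNC on either strand.
Mt1, chr19:10832926-10833225: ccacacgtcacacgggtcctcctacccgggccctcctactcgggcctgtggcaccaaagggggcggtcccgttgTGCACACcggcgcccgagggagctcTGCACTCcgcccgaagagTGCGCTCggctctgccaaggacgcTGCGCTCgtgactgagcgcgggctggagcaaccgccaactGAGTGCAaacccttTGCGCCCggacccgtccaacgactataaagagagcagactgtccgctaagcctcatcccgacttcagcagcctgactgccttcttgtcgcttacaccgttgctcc
Mt2A, chr19:10838659-10838958: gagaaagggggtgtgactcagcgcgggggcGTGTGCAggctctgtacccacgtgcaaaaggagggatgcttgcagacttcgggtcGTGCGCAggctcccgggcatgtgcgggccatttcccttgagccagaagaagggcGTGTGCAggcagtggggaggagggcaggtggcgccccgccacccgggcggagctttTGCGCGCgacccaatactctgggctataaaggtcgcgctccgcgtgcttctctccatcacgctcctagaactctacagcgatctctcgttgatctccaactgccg
Mt1 held 6 such matches and Mt2A 4, none overlapping. Of 33469 promoters of this length, 24.2% held at least 1, 0.439% at least 4 and 0.0388% at least 6. A match describes these letters and is not a measured binding site.

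Among 20 genes of the glucocorticoid and FOXO response, 5 were higher and 1 lower, the same after centring, with a median of 0.39. Mt1 and Mt2A are 2 of these 5. Of the 20, 16 lay above their Ct level, 2 below and 2 at it, most of them within 1.5-fold. Sgk1, also on the list, differed by -0.42. Fkbp5, a chaperone of the glucocorticoid receptor, read 7.72 in Ct, 7.65 in DN and 8.94 in TS. The transcription factors Zbtb16 (9.53, 8.56 and 10.28) and Klf15 (6.86, 6.56 and 7.58) had the same order. In these 3 genes, TS was highest and DN lowest, unlike Mt1 and Mt2A, which were higher in both. The lower member was Hsd11b1, the enzyme that regenerates active glucocorticoid inside cells (9.91, 9.72 and 9.01). Zinc transporters differed by less, with Slc30a2 (0.65) the one past 1.5-fold as deposited and Slc39a14 at 0.30.

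Cish and Socs3, feedback inhibitors of cytokine receptors, were among the highest genes. Both are made when STAT factors are activated and then restrain the same receptors. Cish read 6.54 in Ct, 7.33 in DN and 8.93 in TS, a 5.24-fold difference, and Socs3 read 6.99, 7.98 and 9.28, or 4.91-fold. In both the DN pool lay between Ct and TS. The other SOCS genes compared were not past 1.5-fold, and the highest of them, Socs6, differed by 0.32. Of 29 cytokine signalling genes, these 2, the TWEAK receptor Tnfrsf12a (9.67, 10.26 and 10.98) and the kinase Jak2 (8.81, 10.29 and 9.82) were past 1.5-fold, and none was lower. The median was 0.25. The Cish promoter (RefSeq, GRCr8, plus strand, same window) is shown for its cluster of STAT motifs, TTCNNNGAA, in capitals; the motif reads the same on both strands.
Cish, chr8:116850719-116851018: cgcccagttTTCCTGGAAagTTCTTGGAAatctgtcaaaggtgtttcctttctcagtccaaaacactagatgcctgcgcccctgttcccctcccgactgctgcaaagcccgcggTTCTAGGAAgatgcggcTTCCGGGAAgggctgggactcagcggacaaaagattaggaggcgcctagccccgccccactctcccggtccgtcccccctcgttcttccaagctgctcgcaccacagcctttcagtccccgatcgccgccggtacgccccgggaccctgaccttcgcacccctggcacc
It held 4 matches, a number reached by 2 of 33469 promoters, while 8.87% held at least 1. The window taken for Socs3 held none, which says only that these letters are not in it. Whether that window covers the promoter in use was not tested.

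Immediate early genes, which cells switch on within minutes of a stimulus, went both ways, with more past 1.5-fold on the lower side. Of 24, 9 were at least 1.5-fold lower and 2 higher (10 and 2 after centring), against 2.68% and 5.89% of all genes. Of the 24, 13 lay below their Ct level, 7 above it and 4 at it, with a median of -0.09. Atf3 read 11.76 in Ct, 11.49 in DN and 10.23 in TS. Egr1 read 9.60, 10.49 and 8.35, and Fos 10.01, 10.24 and 8.82. In these 3 the suspended pool stood apart from both others. Klf4 (-0.95) and Nr4a2 (-0.98) were lower too, whereas Myc, a regulator of growth and ribosome genes, read 8.10, 8.43 and 9.18, and Ier3 was higher by 0.93. Of 15 clock genes, the repressor Nr1d1 (9.11, 9.93 and 10.07) was higher and its target Bmal1 (9.08, 8.27 and 8.48) lower. Tef (0.59) was past 1.5-fold as deposited and not under the other scalings.

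Among growth factor and TGF-beta genes, 10 of 52 were higher and 2 lower, with a median of 0.03 that was negative under the 3 other scalings. The higher genes included Fst, which binds and blocks myostatin (7.61 in Ct, 10.34 in DN, 8.70 in TS), Tgfb2 (1.03), the HGF receptor Met (0.86) and Igfbp5 (0.83). The lower genes were myostatin itself, Mstn (7.27, 6.61 and 6.38), and Inhba (-0.74), an activin subunit. The antagonist was thus higher and the ligand lower in both treated pools. Hbegf, a ligand of the EGF receptor, read 8.94, 10.81 and 10.96.

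Of the 20 highest genes, those not yet described were of varied function. B3galt2, a galactosyltransferase, read 7.15 in Ct, 8.14 in DN and 9.90 in TS. The chitinase-like protein Chi3l1 read 7.15, 9.09 and 9.46, and Sh3rf2, a ring finger protein, 6.54, 6.68 and 8.77. The cell adhesion receptor Pvr (2.10), the angiogenesis regulator Vash2 (1.95) and the tubulin Tubb6 (1.94) were also there. In Sh3rf2 and B3galt2 the TS pool lay more than 1 above the DN pool. At the low end, Tecrl, a reductase-like protein known from inherited heart arrhythmia, read 9.83, 6.78 and 6.86. Tceal7 read 11.20, 10.41 and 8.70, the one gene among the 5 lowest whose DN level lay nearer Ct than TS. The transporter Slc41a3 differed by -2.41, the muscle methyltransferase gene Mettl21c by -2.26 and Lgi1 by -2.08. Apold1, an endothelial gene, Tppp3, a tubulin-binding protein, and Mavs, an adaptor of antiviral signalling, differed by -1.74, -1.60 and -1.59. Of the 139 genes past 2-fold higher, 4 read below the filter limit in Ct, Mybpc2, Hpx and Angptl4 among them. Of the 70 lower genes 5 did in TS, including Calhm1 (6.93, 5.91 and 5.16). The sizes of all these differences are less certain. Of 8 further probe sets of genes past 2-fold, all 8 differed in the same direction and 5 were again past 2-fold.

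**Figure D4:**
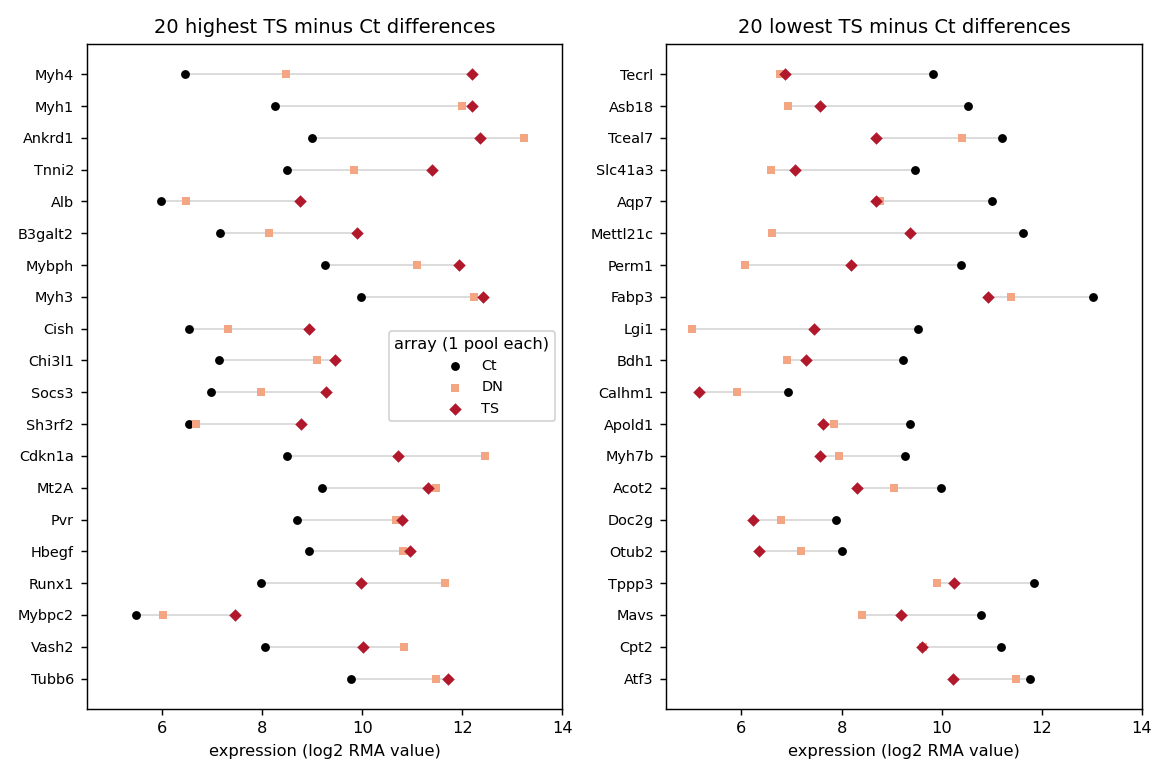
Levels (log2 RMA value) of the 20 genes with the highest and the 20 with the lowest TS minus Ct difference in the Ct (black circles), DN (orange squares) and TS (red diamonds) pools, 1 array each. The genes were chosen for the distance between Ct and TS; the DN pool lies beyond TS for Ankrd1, Cdkn1a, Runx1 and Vash2, among others, and close to Ct for Sh3rf2.

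Some channels and transporters differed in opposite directions within a family. Of 5 aquaporins compared, the water channel of fast fibres, Aqp4, read 7.53 in Ct, 5.64 in DN and 8.90 in TS, while Aqp7, which also passes glycerol, read 11.00, 8.76 and 8.69. Aqp4 was thus lowest in DN and highest in TS, and Aqp7 was lower in both treated pools. Of 9 carbonic anhydrases, 3 were lower and none higher. These were Car3, abundant in slow fibres (13.65, 13.62 and 12.78), the membrane-bound Car4 (9.22, 8.32 and 8.33) and Car14 (9.20, 5.03 and 8.50). Among 45 potassium channel genes, with a median of 0.00, Kcnq5 (1.23), Kcna7 (0.70) and Kcnn3 (0.62) were higher. Kcnj13 (-1.11) was lower, and after centring 1 was higher and 1 lower. As deposited, these counts were near the shares of all genes, 5.89% higher and 2.68% lower. Of 20 sodium and calcium channel genes, 3 were higher and none was lower, or 1 and 1 after centring, with a median of 0.00. The sodium channel subunit Scn3b was the highest of them, at 1.17. Of 33 mitochondrial carriers, 2 were higher and 1 lower, near the shares of all genes, with a median of 0.00. Slc25a35, the highest of these carriers, read 7.08, 6.93 and 8.76. Antioxidant genes went both ways, 5 of 36 higher and 4 lower, which centring turned to 2 and 5. Gstm2 read 7.14, 9.73 and 8.53, and Nqo1, a quinone reductase, 10.06, 10.52 and 8.87.

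Most genes of the matrix differed by less than 1.5-fold. The median of 25 collagens was 0.00, with Col8a1 (1.12) higher and Col11a1 (-0.82) lower, and Col1a1 read 12.28 in both pools. Of 42 other matrix and remodelling genes, 6 were higher and 2 lower, with a median of 0.03 that turned to -0.10 after centring. The protease inhibitor Timp1 read 8.83 in Ct, 9.92 in DN and 10.39 in TS, and the collagen cross-linking enzyme Lox 8.55, 10.02 and 10.02. The small proteoglycan Ogn (-0.70) and its relative Aspn (-0.61) were lower. Tendon markers were lower, 4 of 10 against 1 higher, with a median of -0.37. Kera (10.43, 9.24 and 9.07), Chad (9.20, 7.58 and 7.85) and Tnmd (9.13, 7.53 and 7.92) were the lowest, and the summed level of all 10 came to 12.62 for Ct, 12.13 for DN and 12.15 for TS (linear values summed, then log2). The part of tendon tissue in the matrix values was not tested.

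Markers of other cell types showed more macrophage and adipocyte message in the suspended pool. Of 21 macrophage markers, 8 were higher and none lower (5 after centring), with a median of 0.55, and the summed level of all 23 on the array was 13.27 in Ct, 13.42 in DN and 13.79 in TS. Cd163 and Mrc1, scavenger receptors of resident macrophages, read 8.55, 8.86 and 9.72, and 9.53, 9.98 and 10.48. Mpeg1 (6.57, 7.50 and 7.84) was higher, while Ms4a7 differed by -0.09. Of 34 chemokine and complement genes, 7 were higher and none was lower (4 and 1 after centring), and the median was 0.09, or -0.05 after centring. Among the higher were the receptors Ccr1 (0.85) and Ccr2 (0.72). Interferon and antigen presentation genes had no settled direction (2 of 32 higher and 1 lower, 0 and 3 after centring), with B2m at -0.74. Lymphocyte markers, 6 compared of 14, and neutrophil and mast cell markers, 5 of 12, had none past 1.5-fold.

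Of 11 adipocyte markers, 5 were higher, none was lower, and the median was 0.52. The hormone Adipoq read 7.82 in Ct, 9.92 in DN and 9.45 in TS, and Cfd, or adipsin, 8.44, 9.76 and 9.86. Cidec, of the lipid droplet, differed by 1.16, while the fatty acid binding protein Fabp4 differed by -0.43. The lipogenic gene Thrsp read 7.22, 8.45 and 8.66, and Dgat2, which completes triglycerides, was higher by 0.94. The summed level of the 12 adipocyte markers was 12.17 in Ct, 12.80 in DN and 12.46 in TS. Smooth muscle and pericyte markers had none of 13 past 1.5-fold and a median of -0.01, and fibroblast markers 2 of 12 higher, Pdgfra (0.81) and Fbln1 (0.73), with a median of 0.00. Schwann cell and nerve markers had 1 of 10 higher, Prx (0.67), and 1 lower, Egr2 (-0.82).

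Blood and plasma genes held the fifth highest gene of the whole comparison. Alb, which encodes serum albumin and is made by the liver, read 5.97 in Ct, 6.48 in DN and 8.76 in TS, a 6.88-fold difference. Hpx, or hemopexin, another liver product, read 5.25, 5.25 and 6.67. Of 7 blood and plasma markers compared, these 2 were past 1.5-fold, and the median was 0.45. Hpx read below the filter limit (5.72) in Ct and DN and was compared only through its TS level. Its place in this count is therefore no support for a higher group. Over all 14 markers on the array, unfiltered, the median was 0.46. The remaining liver genes on the list read dim and below the filter. Fga read 4.25 in Ct and 5.20 in TS, Hp 5.40 and 6.01, Ttr 4.88 and 5.38, Ambp 4.92 and 5.39, Serpina1 5.52 and 5.83, and Fgb 5.22 in both. Apoa1 (5.88 and 5.96) was near its Ct level. The red cell genes Hbb (0.56), Alas2 (0.45) and Hbb-b1 (-0.11) stayed within 1.5-fold. The summed level of the 14 markers was 12.13 in Ct, 11.75 in DN and 12.52 in TS. The part of RNA from another tissue in these values was not tested.

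**Figure D5:**
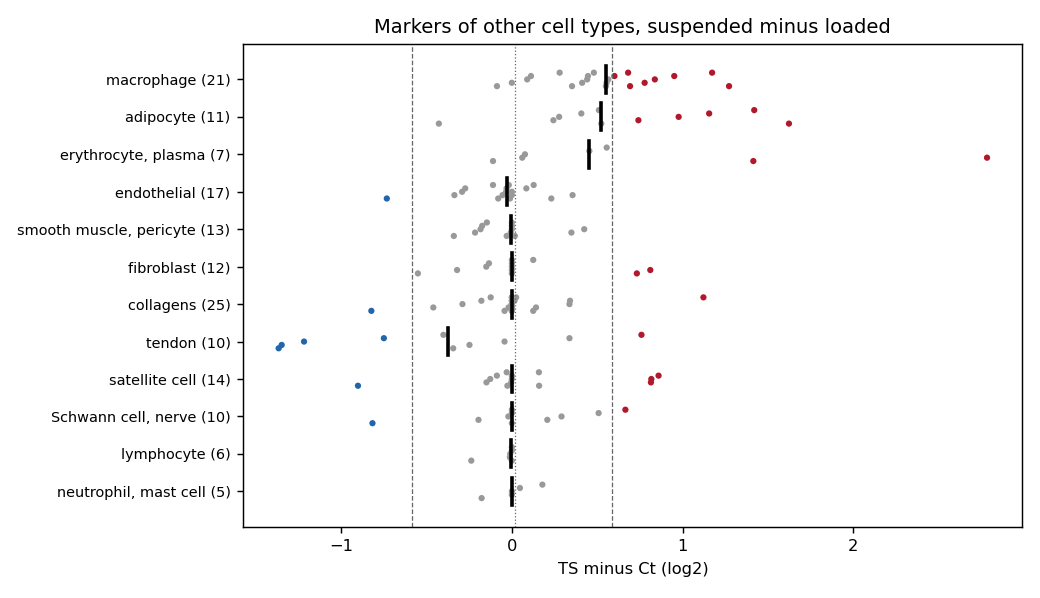
TS minus Ct (log2, horizontal axis) for every compared member of 11 marker lists of other cell types and of the collagens, with the number of members in brackets; black bars are medians, dashed lines 1.5-fold, the dotted line the median of all genes (0.02). Macrophage and adipocyte markers lie to the right (medians 0.55 and 0.52), tendon markers to the left (-0.37), and Alb is the point at 2.78.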

How the data were processed

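Per the labels, the authors made the deposited values, taken here as log2 expression, with RMA in Affymetrix Expression Console (background correction, normalization across arrays, median polish of the probes of a set; core-exon analysis). The base of the logarithm is unstated, and folds assume base 2. The sources used here do not give the tool's version, the annotation or the build. Of 29170 probe sets, 15310 had 1 gene symbol in the platform annotation, 323 several and 13537 none; the latter were left out. The GRCr8 table held the gene identifiers of 15279. Promoter sequences came from RefSeq (GRCr8).

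Each sample was grouped by its label. TS minus Ct was taken per gene, with no test, and members of 66 gene lists were counted at 1.5-fold. Symbols absent from the annotation were matched by synonym where 1 gene carried it. Members and lists were chosen with earlier results of these data known. Named were the 20 highest and 20 lowest genes (uncharacterised loci, olfactory, vomeronasal and taste receptors and small RNAs passed over), up to 6 members of each list in its main direction and up to 3 in the other, and Myh1, Myh2, Myh4, Myh7, Myog, Fbxo32, Trim63, Cdkn1a, Cish, Mt1 and Mt2A; Mcm2, Mcm7, Socs6 and the plasma genes below the filter were chosen after their values were seen. Some genes sit on more than 1 list. Alternatives were centring, loess (span 0.3), quantile normalization, an offset of 32, other filters (none, 50th percentile, Ct and TS only), other uses of probe sets, equal values left out and a 3-fold limit. The counting was tested on simulated data. Figures were drawn with matplotlib 3.10.9 and the trend fitted with statsmodels 0.14.6, under pandas 2.3.3, numpy 2.4.6 and Python 3.11.15. The number of arrays limits the precision.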

Additional observations from a re-analysis of the deposited data

Results flagged for a closer look

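Probe sets outside the comparison also differed. Of 13537 probe sets without a gene symbol, 6448 reached the filter limit. At the 2-fold limit, 61 of these were higher and 133 lower in TS as deposited. Named genes had more at the higher end as deposited, but 90 higher and 120 lower after centring. The probe sets without a symbol were not counted after centring. Of 323 probe sets with several symbols, 118 reached the limit, and 2 were higher and 3 lower. They are unnamed here, and what they measure was not tested.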

How the results depend on the processing

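With each array centred on its median, 90 genes were at least 2-fold higher and 120 lower, and 357 at least 1.5-fold higher. With 32 added on the linear scale, 91 were 2-fold higher. A 3-fold limit left 35 higher and 19 lower, since fewer genes can pass it. The other counts over all genes stayed within 1.5 times those reported under the alternatives run. Counts within many gene groups moved by more. Among them, centring took the higher members of the cytosolic ribosome from 12 to 5, of ribosome assembly from 10 to 6, of nuclear transport from 9 to 5, of macrophage markers from 8 to 5, of chemokines and of the costamere from 7 to 4 and 3, of antioxidant genes and of the neuromuscular junction from 5 to 2, and of excitation-contraction coupling from 4 to 2. It took the lower members of the citric acid cycle from 8 to 14, of complex III and of growth factor signalling from 2 to 4, and of complex II from 1 to 3. No median of a list past 0.2 and no named gene past 1.5-fold changed sign. Of 267 named genes past 1.5-fold, 50 came under it under at least 1 alternative. Of 28 lists with a median of at least 0.2 in size, 10 came under it under at least 1 alternative, among them cytosolic ribosome (0.13), proteasome (0.13), excitation-contraction coupling (0.11) and amino acid transporters (0.19) under centring, and slow-fibre genes (-0.19) with the loess trend removed. No paired analysis was possible because each group is 1 pooled array. With 1 array a group, dim genes and genes near the top of the range have uncertain sizes.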
